A study of Danio rerio with 3 samples.

Results

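The genes described here are the pancreatic lipases and acinar factors of the zebrafish larva: 2 carboxyl ester lipases (cel.1, cel.2), phospholipase A2 (pla2g1b), colipase (clps), amylase (amy2a), the granule glycoprotein gene gp2 and the transcription factor genes ptf1a, rbpjl and bhlha15. They are 9 symbols selected on FPKM values and ratios of these same 3 libraries, which were known when the genes were chosen, and they were looked up by symbol in the deposited tables. Of these, 7 were found among 24555 genes, and clps and gp2 were not analysed here. A value in all 3 libraries existed for 6 of them, and rbpjl had no knockout value. Because the choice used these contrasts, the values below are a description and none of them was tested.

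Acinar cells of the exocrine pancreas make digestive enzymes, store them in zymogen granules and release them into the gut lumen. Carboxyl ester lipase, which bile salts activate, splits triglycerides, cholesteryl esters and vitamin esters, and the secreted phospholipase A2 frees a fatty acid from phospholipids. Amylase cuts starch. In mouse, the basic helix-loop-helix factor Ptf1a, with an E protein and Rbpjl, forms the complex that drives acinar enzyme genes, while Bhlha15 (Mist1) organises the granules of secretory cells. In zebrafish ptf1a is also expressed in neurons of the hindbrain and retina, so its level in a whole larva is not that of the pancreas alone.

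RNA of whole larvae at 7 days post fertilization on the AB background was sequenced, with 30 larvae pooled into 1 library for each of 3 groups. The control was wild type; the knockout was titled serpini1-/- (its genotype label reads Tg (serpini1-/-)), and the transgenic group carried huc:teton:gal4 with tre:serpini1:mkate2, a Tet-On driver under a neuronal promoter and a responder for serpini1 and a red fluorescent protein. All 3 groups were kept in doxycycline at 40 µg/mL from day 3 to day 7. No group carried the driver or the fluorescent protein without serpini1, so their parts in the transgenic values cannot be told apart. Serpini1 encodes neuroserpin, an inhibitor of tissue-type plasminogen activator; its own transcript stood at 20.04 FPKM in control, 8.05 in the knockout and 288 in the transgenic library.

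Each group is a single library, so nothing below could be checked in replicates or tested between conditions. Levels are FPKM, fragments scaled to transcript length and to library depth, so levels of different genes can be set side by side. Depth was worked out from the authors' p-values and came to about 7740000 fragments in control, 7760000 in the knockout and 7980000 in the transgenic library. Ranges in parentheses are 95% counting intervals, exact Poisson for a level and Clopper-Pearson for a ratio, which cover counting error only and not the variation between pools of larvae. In RNA of whole larvae, fewer acinar cells and less RNA per acinar cell cannot be told apart.

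The digestive enzymes were abundant and the transcription factors scarce. Amy2a was the highest of them in control at 477 FPKM (464 to 489), rank 212 of all genes, and cel.1 followed at 456 (444 to 467), so these neighbours overlap in counting error. Pla2g1b stood at 197 FPKM (183 to 212) and cel.2 at 132 (126 to 138). The factors lay more than 2 orders of magnitude below amylase, with ptf1a at 1.63 FPKM (1.09 to 2.34), bhlha15 at 0.94 (0.378 to 1.94) and rbpjl at 0.83 (0.380 to 1.58), and their intervals overlap. Control fragments behind these values numbered 5637 for amy2a and 6001 for cel.1, against 29 for ptf1a, 9 for rbpjl and 7 for bhlha15.

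**Figure D1:**
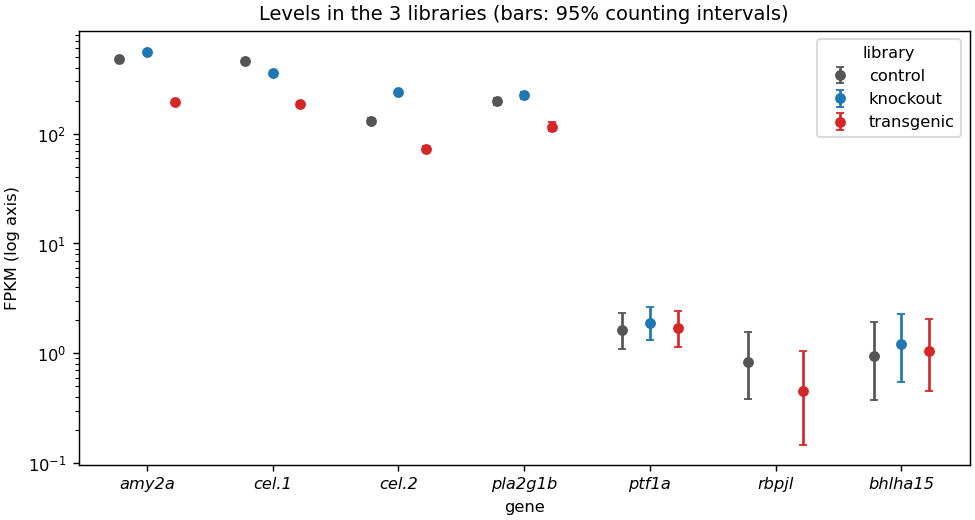
FPKM (log axis) of the 7 genes in the control, knockout and transgenic libraries, 1 point per library with its 95% counting interval. The 4 enzyme genes are lowest in the transgenic library, while the factor genes lie near 1 FPKM with wide, overlapping intervals; rbpjl has no knockout value.

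Amylase was lower in the transgenic library than in the other 2. Amy2a (gene identifier 406539, 1627 bases) stood at 477 FPKM in control, 553 (540 to 567) in the knockout and 196 (188 to 204) in the transgenic library. Its transgenic level was 2.43-fold lower than control (2.32 to 2.55) and its knockout level 1.16-fold higher (1.12 to 1.203). Between the transgenic and the knockout library the difference was 2.82-fold (2.69 to 2.96). Among the other amylase genes, amy2al2 (zgc:92137 in the deposited table) had the same order, at 250 FPKM in control, 295 in the knockout and 113 in the transgenic library, while amy2al1 (zgc:66313) was scarce, at 0.74 FPKM in control against 0.87 in transgenic larvae.

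The carboxyl ester lipases were both lower in the transgenic library and moved apart in the knockout. Cel.1 (322481, 1801 bases) stood at 456 FPKM in control, 358 (348 to 369) in the knockout and 186 (178 to 193) in the transgenic library. Cel.2 (565117, 1839 bases) stood at 132 FPKM in control, 241 (233 to 249) in the knockout and 72.7 (68.3 to 77.4) in the transgenic library. The knockout was thus the library with the highest cel.2 level but not the highest cel.1 level. Against control, cel.1 was 1.27-fold lower in the knockout (1.22 to 1.32) and cel.2 was 1.83-fold higher (1.73 to 1.94). In the transgenic library cel.1 was 2.45-fold lower than control (2.34 to 2.57) and cel.2 1.81-fold lower (1.68 to 1.96). The widest gap between any pair of libraries among the 4 enzyme genes was that of cel.2 between knockout and transgenic, at 3.31-fold (3.09 to 3.56).

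Summed over both genes, the lipase transcript was nearly level between control and knockout. The sum was 587 FPKM in control, 599 in the knockout and 258 in the transgenic library. The knockout sum was 1.02 times that of control (0.993 to 1.06), an interval that includes 1, and the transgenic sum was 2.27-fold lower (2.18 to 2.36). What differed was the split: cel.2 held 22.8% of the pair's fragments in control (21.9 to 23.8), 40.7% in the knockout (39.7 to 41.8) and 28.6% in the transgenic library (27.1 to 30.1), with no overlap between the intervals. The genes are described in the deposited table as tandem duplicates, and RefSeq places them side by side on chromosome 21 of GRCz12tu, an assembly that is not the authors' build, with 0 genes between them. The sources used here do not give how fragments shared by such copies were assigned, so the level of each copy is less certain than their sum, and the part of shared fragments in the split was not tested.

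**Figure D2:**
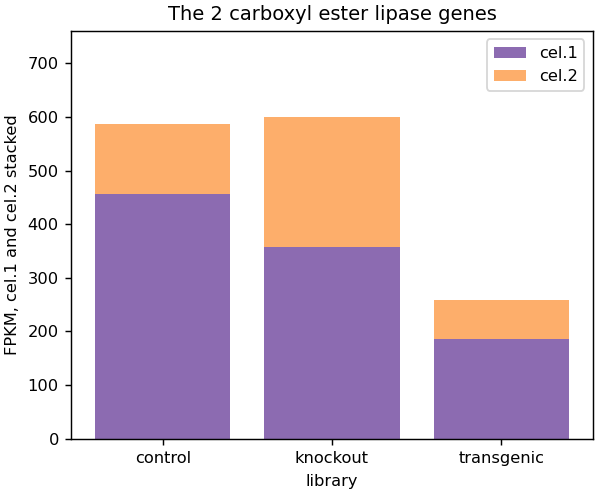
FPKM of cel.1 and cel.2 stacked as bars for each of the 3 libraries. The total is 587 in control and 599 in the knockout with a larger cel.2 portion in the knockout, and 258 in the transgenic library.

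Phospholipase A2 had the smallest differences of the enzymes against control, but its place as the smallest was not beyond counting error. Its ratio interval overlapped that of amy2a in the knockout and that of cel.2 in the transgenic library. Pla2g1b (571738, 594 bases) stood at 197 FPKM in control, 223 (209 to 239) in the knockout and 116 (105 to 127) in the transgenic library. Its knockout level was 1.13-fold higher than control (1.03 to 1.25), and its transgenic level 1.70-fold lower (1.51 to 1.92). In the knockout its interval overlapped that of cel.2, while in control and in the transgenic library it lay above cel.2. The transgenic library kept amy2a and cel.1 as overlapping neighbours at the top, at 196 and 186 FPKM.

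For the transcription factors, every interval of a ratio to control included 1. Ptf1a (368662) stood at 1.63 FPKM in control, 1.90 (1.32 to 2.66) in the knockout and 1.70 (1.15 to 2.43) in the transgenic library. Its transgenic ratio to control was 1.04 (0.605 to 1.80). This interval lies above the ratios of 0.412 (0.392 to 0.432) of amy2a, 0.408 (0.389 to 0.427) of cel.1 and 0.552 (0.510 to 0.597) of cel.2. It overlaps the ratio of 0.587 (0.522 to 0.661) of pla2g1b. These intervals cover counting error only, and ptf1a is also expressed in neurons. A difference between ptf1a and the enzymes within the pancreas was not tested. Bhlha15 (777671) stood at 0.94 FPKM in control, 1.21 in the knockout and 1.04 in the transgenic one, with a transgenic ratio to control of 1.11 (0.351 to 3.58). Rbpjl (503870) had 0.83 FPKM in control and 0.45 in transgenic larvae, from 9 and 5 fragments, a ratio of 0.542 (0.143 to 1.80). For bhlha15 and rbpjl a difference of the size seen in amylase was not detectable at this depth.

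**Figure D3:**
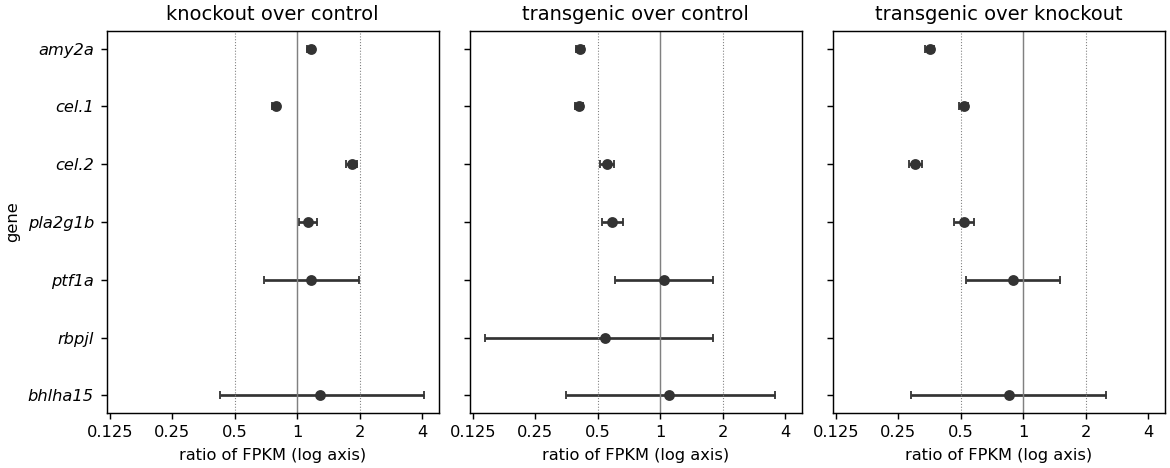
Ratio of FPKM (log axis) between pairs of libraries for each gene, with 95% Clopper-Pearson intervals; the solid line marks 1 and dotted lines mark 2-fold. Against control, the transgenic ratios of the 4 enzyme genes lie between 0.408 and 0.587, and cel.2 is at 1.83 in the knockout.

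Across all genes, a difference was counted as 2-fold when the log2 ratio of (FPKM + 1) was at least 1 in size, a scale that understates low genes. Only genes reaching 1 FPKM in a library of the pair were counted. In the knockout, 0 of the 6 members with values were past this rule, where 1.46% of 18663 genes were (0.798% higher and 0.664% lower). A log2 ratio above 0 was found for 5 of the 6, where 44.9% of all genes had one. Among these 5, the ratio intervals of ptf1a and bhlha15 included 1. In the transgenic library 2 of the 6 members that passed the floor, amy2a (-1.28) and cel.1 (-1.29), were at least 2-fold lower than control, where 1.26% of 19242 genes were lower (4.82% in either direction, 3.56% higher), and cel.2 (-0.85) and pla2g1b (-0.76) were below 0 but short of the rule. Rbpjl was under the floor. Between the transgenic and the knockout library, 2 of 6, cel.2 (-1.71) and amy2a (-1.49), were past the rule on the lower side, against 1.08% of 18775 genes (3.94% in either direction, 2.87% higher), and cel.1 (-0.95) and pla2g1b (-0.94) lay just short of it. All 3 comparisons share libraries and chose the members, so nothing is read from these counts. In the authors' table of the transgenic comparison the log2 ratios were -1.29 for cel.1, -1.28 for amy2a, -0.86 for cel.2 and -0.77 for pla2g1b. Amy2a and cel.1 were marked there as down. Cel.1, amy2a, cel.2 and pla2g1b are all absent from the authors' deposited table for the knockout. That table holds only genes with at least a 2-fold difference by the authors' log2 ratio, all with an FDR of 0.00096 or less. Absence from it therefore does not tell whether a gene had a difference smaller than 2-fold. By FPKM these genes were all under 2-fold in the knockout, with cel.2 the farthest at 1.83-fold.

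The same ratios were set against abundant genes only, those reaching 100 FPKM in a library of the pair, counting the gene itself. In the knockout 8 of 614 such genes (1.3%) had a ratio as high as that of cel.2 or higher, and 45 (7.33%) one as low as that of cel.1 or lower. Amy2a and pla2g1b were within the common range there, with 93 and 109 genes at least as high. In the transgenic library 2 of 679 (0.295%) were as low as cel.1, 5 (0.736%) as low as amy2a, 28 (4.12%) as low as cel.2 and 36 (5.3%) as low as pla2g1b. Cel.2 reached 100 FPKM in that pair only through control, at 132 against 72.7 FPKM. The members were chosen with these ratios known, so the shares describe them and nothing is read from their rarity.

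Most other exocrine genes also had lower levels in the transgenic library. The 40 other exocrine symbols matched 33 different genes, some under several symbols. Of the 32 that reached the floor, 1 had a transgenic log2 ratio above 0, where 52.5% of all genes did, and 31 one below 0. At least 2-fold lower were 12 of the 32, against 1.26% of all genes, and the median log2 ratio was -0.93 where that of all genes was 0.03. In the knockout, 21 of 31 lay above 0, where 44.9% of all genes did. Past the rule were 0 of the 31, where 1.46% of all genes were, and the median was 0.09 against -0.03 for all genes. The elastase gene cela1.3 (zgc:92745 in the deposited table) was the farthest, at 120 FPKM in control, 59.9 in the knockout and 23.0 in the transgenic library. Its knockout level was 2.01-fold lower than control without the pseudocount, and just short of the rule with it (-0.995). The carboxypeptidase gene cpa1 stood at 94.55, 96.7 and 34.4 FPKM in the same order, and erp27, an endoplasmic reticulum protein of the disulfide isomerase family, at 112, 131 and 46.1. Others past the rule included amy2al2, the elastase genes cela1.1, cela1.2, cela1.5, cela1.6 and ela2l, and the carboxypeptidase genes cpa5 and cpb1. Cela1.6 was the most abundant of these, at 7762 FPKM in control, 7313 in the knockout and 3785 in the transgenic library. Elastases and trypsin-like proteases have close copies that can share reads, so their single values are uncertain. The pancreatic lipase symbols pnlip, pnliprp1 and pnliprp2 were not matched and are not analysed here.

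The shares of the members in the summed exocrine level differed from library to library. The 31 list genes with values in all libraries summed to 39168 FPKM in control, 41965 in the knockout and 20641 in the transgenic library, which is 1.90-fold lower in the transgenic than in control. The 4 enzyme members summed to 1261, 1376 and 570.5 FPKM, or 2.21-fold lower in the transgenic library. Members and list genes together, 35 genes that include some that are not enzymes, summed to 40429, 43341 and 21211 FPKM. Of this joint sum the 4 members made up 3.12% in control, 3.18% in the knockout and 2.69% in the transgenic library. Amy2a held 1.18%, 1.28% and 0.925% of it and cel.1 1.13%, 0.827% and 0.875%. Cel.2 held 0.326%, 0.556% and 0.343%, and pla2g1b 0.488%, 0.515% and 0.546%. Counted within the list's 32 ratios of transgenic over control, 2 lay below that of amy2a and 2 below that of cel.1, but 21 below that of cel.2 and 24 below that of pla2g1b. In the knockout, all 31 list ratios lay below that of cel.2 and 5 below that of cel.1.

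**Figure D4:**
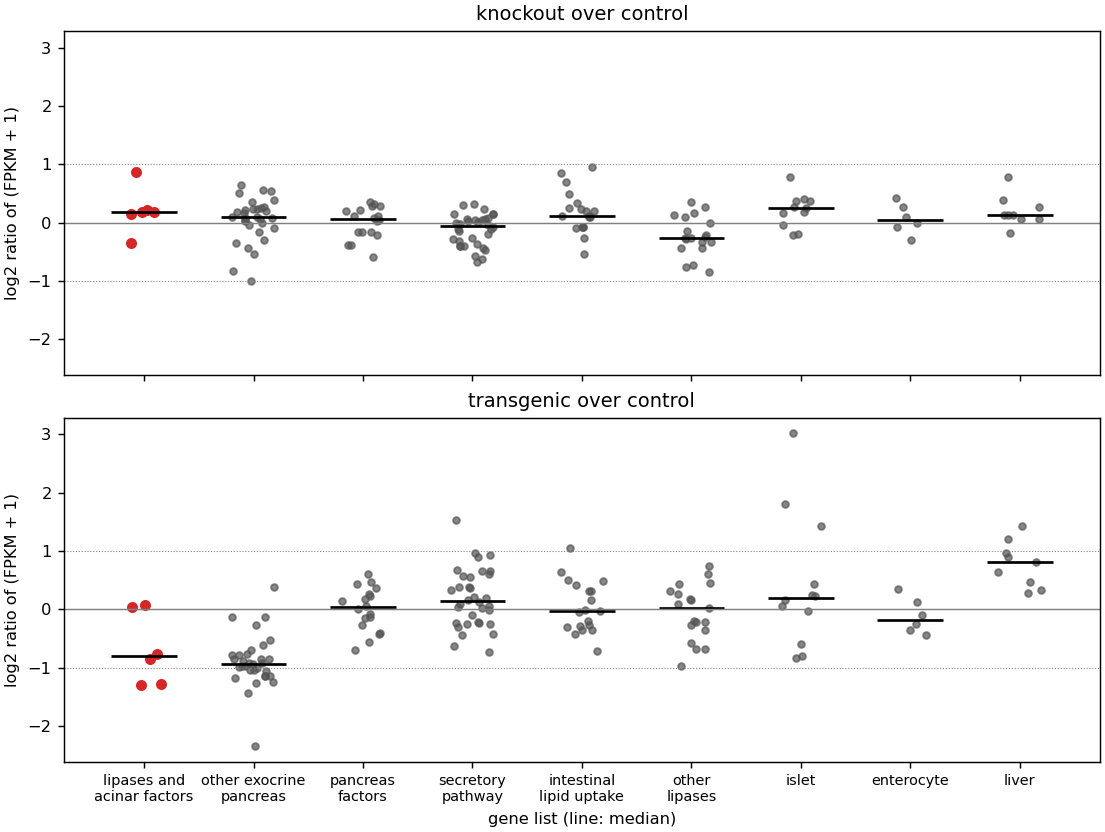
Log2 ratio of (FPKM + 1) for each gene of the lists named on the horizontal axis, knockout over control above and transgenic over control below; points are genes reaching 1 FPKM in a library of the pair, lines are medians and dotted lines mark the 2-fold rule. The lipases and acinar factors (red) spread from -1.29 to 0.07 in the transgenic panel, where the median of the other exocrine genes is -0.93.

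Genes listed as acting upstream of enzyme production had medians near 0, as all genes did. Their levels are those of the whole larva and not of acinar cells alone. Of 18 pancreas and acinar development factors, 0 were past the rule in either comparison with control. Among all genes 1.46% were in the knockout and 4.82% in the transgenic library, so a 0 among so few genes is near those shares. The medians were 0.06 in the knockout and 0.04 in the transgenic library, where those of all genes were -0.03 and 0.03. Of those reaching 5 FPKM in a library, the 3 with the largest ratios against control were hnf4a, a nuclear receptor of liver and gut, at 12.6 FPKM in control, 10.7 in the knockout and 7.35 in the transgenic library, nr5a2, which in mouse acts in acinar cells, at 5.17, 3.12 and 3.67, and tcf3a, an E protein gene, at 8.02, 5.92 and 5.09. Foxa3, which did not reach that level, stood at 2.58, 3.47 and 4.43 FPKM. In the transgenic library 10 of the 18 factors lay above 0, near the 52.5% of all genes. Rbpja, a paralog of rbpjl that serves Notch signalling, stood at 3.02, 2.61 and 3.53 FPKM, and rbpjb at 2.53, 2.17 and 1.64. Of 13 secretion signalling genes, 9 reached the floor, and 0 of these were past the rule, beside the same shares of all genes. The rest, among them the cholecystokinin receptor genes, lay under the floor or lacked a knockout value and were not counted. The cholecystokinin genes, whose hormone calls for enzyme release, stood at 24.3, 29.2 and 33.8 FPKM for cckb and at 8.17, 5.82 and 6.16 for ccka. The calcium channel gene itpr3 stood at 3.82, 4.36 and 5.56.

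In the list of the secretory pathway, 22 of 34 genes had a transgenic log2 ratio above 0 (median 0.14), where 52.5% of all genes did. At least 2-fold higher was 1 of the 34, a share near the 3.56% of all genes. It was the disulfide isomerase gene pdia4, at 5.71 FPKM in control, 6.41 in the knockout and 18.4 in the transgenic library. The chaperone gene hspa5 stood at 50.9, 50.1 and 98.2 FPKM and ddost, a subunit of the enzyme that attaches sugar chains, at 17.0, 17.8 and 34.1. In the knockout 13 of the 34 lay above 0, where 44.9% of all genes did, with a median of -0.05. Below 0 in the transgenic library were 12 of the 34. The farthest of these were rab27b, at 4.61, 2.51 and 2.36 FPKM, and rab26, at 4.64, 2.81 and 2.64. The genes of this list are not particular to acinar cells, and the whole larva does not say in which cells they differed.

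Lipases of other tissues and the lipid uptake genes of the gut were read beside the pancreatic ones. Of 19 other lipase genes, 5 lay above 0 in the knockout, where 44.9% of all genes did. In the transgenic library 10 did, near the 52.5% of all genes, and the medians were -0.25 and 0.03. Past the rule were 0 of them, where 1.46% of all genes were in the knockout and 4.82% in the transgenic library. Lipoprotein lipase (lpl), which acts on circulating lipoproteins, stood at 157 FPKM in control, 92.6 in the knockout and 79.3 in the transgenic library. The endothelial lipase gene lipg stood at 17.8, 9.40 and 10.8 FPKM, and mgll, which splits monoglycerides, at 12.4, 14.02 and 21.25. Of 19 genes of intestinal lipid uptake, 13 were above 0 in the knockout (median 0.12) and 8 in the transgenic library (median -0.04), beside the same shares of all genes. The lipid droplet gene plin2 was the 1 of these past the rule, in the transgenic library, a share near the 4.82% of all genes. It stood at 1.01 FPKM in control, close to the floor, 2.91 in the knockout and 3.18 in the transgenic library. Npc1l1, the sterol importer, stood at 8.07, 15.5 and 13.2 FPKM in the same order, dgat2, which makes triglyceride, at 24.1, 39.8 and 17.65, and the lipoprotein receptor gene scarb1 at 6.54, 6.19 and 3.61.

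Markers of neighbouring cell types were read in the same libraries. In the knockout 8 of the 9 liver markers lay above 0, where 44.9% of all genes did. All 9 lay above 0 in the transgenic library, where 52.5% of all genes did. At least 2-fold higher were 2 of them, against 3.56% of all genes: the transferrin gene tfa at 292, 501 and 792 FPKM and the fibrinogen gene fgb at 60.6, 66.2 and 141. The summed level of the 9 was 2770 FPKM in control, 3412 in the knockout and 4297 in the transgenic library. Most of this sum was fabp10a, at 1989, 2393 and 2743 FPKM. Of the 12 islet markers that reached the floor, 8 lay above 0 in the transgenic library and 4 below, with a median of 0.19, and 3 were at least 2-fold higher and 0 lower. In the knockout 8 of the 11 islet markers counted lay above 0. Over the 12 islet genes with a value in all libraries, which include insb and leave out ghrl, the sums were 174, 189 and 234 FPKM. The glucagon gene gcga stood at 4.27, 8.08 and 41.5 FPKM, gcgb at 4.12, 5.76 and 16.8 and the somatostatin gene sst2 at 10.5, 12.03 and 30.1, while insulin (ins) stood at 40.2, 48.3 and 39.3. On the lower side, the prohormone convertase gene pcsk2 stood at 12.3, 11.95 and 6.46 FPKM, neurod1, a factor of endocrine cells and neurons, at 40.01, 34.8 and 26.1, and the ghrelin gene ghrl at 1.45 in control and 0.41 in transgenic larvae. Another insulin gene, insb, was listed at 0 in control and in transgenic larvae and at 0.69 FPKM in the knockout. The 5 duct markers summed to 175, 152 and 142 FPKM and the 6 enterocyte markers to 739, 793 and 634, with 0 past the rule in either list. Most of the duct sum was anxa4, at 162, 139 and 128 FPKM. Most of the enterocyte sum was fabp2, at 457, 487 and 357 FPKM. In the transgenic library 2 of the 5 duct markers and 2 of the 6 enterocyte markers lay above 0. The part of these marker differences in the enzyme values was not tested.

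The genes most like each enzyme were found by the distance between pairs of log2 ratios, knockout and transgenic over control, among genes at 10 FPKM or more in a library; this likeness rests on 3 libraries. The nearest to amy2a were erp27 (0.01), a gene without a symbol (0.03), slc27a2a (0.05), lonrf1l (0.07) and LOC101884293 (0.13), of which erp27 is in the exocrine list. The nearest to pla2g1b were anxa1c (0.01), cryba1a (0.01), cplx3b (0.02), the elastase gene ela3l (0.02) and fetub (0.06), of which ela3l is in that list. For cel.1 they were st8sia5 (0.08), the selenoprotein gene fep15 (0.09), ahsg2 (0.10), twf2 (0.12) and the elastase gene cela1.5 (0.12). The nearest to cel.2 lay farther off: si:ch1073-13h15.3 (0.20), the cathepsin gene ctsbb (0.27), si:dkey-14d8.6 (0.31), fkbp11 (0.31) and a gene without a symbol (0.33), with 0 of them in the list.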

How the data were processed

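RNA libraries of whole larvae were made by standard Illumina protocols, per the labels' protocols. The submitters' processing notes name HISAT, StringTie, DESeq2 and GRCz11 without saying what each did or in which version; strand use and the handling of shared fragments are likewise not given there. The authors deposited FPKM values, rounded to 2 decimals, per the file headers. The table of all libraries holds 19699 complete genes in falling order of knockout level, none under 0.58 FPKM in the knockout, and ends within a line. By that order, any part missing after this line would hold knockout levels of 0.58 FPKM or less. Rbpjl is not among the complete genes. The deposited comparison tables hold 24529 genes (transgenic) and 266 genes (knockout), with gene length, log2 ratio, p-value and FDR, per the file headers; a value of 0 is written there as 0.01. The deposited FDR was handled as a score, since its highest value is just above 1. The authors' p-values compare single libraries and are labelled as coming from a Poisson method (spelled PossionDis). They were read under that method, only to infer depth and the reads of ptf1a, rbpjl and bhlha15.

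Tables were joined by gene identifier (24555 genes; 4816 without a knockout value). Depth came from the deposited p-values of genes at 0 in control, where 1012 transgenic and 15 knockout genes all gave whole reads within 0.05. Gene length less 100 bases was used, and over 71 genes with at least 10 reads the depth had a coefficient of variation of 3.84%. For ptf1a, rbpjl and bhlha15 the control and transgenic reads were solved from their own p-value; other reads were estimated from FPKM. Ratios used log2(FPKM + 1), a floor of 1 FPKM and a 2-fold rule; folds are ratios of FPKM without the pseudocount. No test between groups was run. Python 3.11.15, numpy 2.4.6, pandas 2.3.3 and scipy 1.17.1 were used, and the count of 2-fold differences was tested on simulated data.

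The members and the 10 gene lists were chosen with earlier results of these data known. Of 180 list symbols, 149 matched the deposited symbols, 24 matched RefSeq symbols and 2 RefSeq synonyms of GRCz12tu, and 5 were not matched. Some lists share genes: sox9b and hnf1ba are both development factors and duct markers, and fabp2 is both an uptake gene and an enterocyte marker. Beside the members, the text names in each list genes from the 3 with the largest log2 ratio against control at 5 FPKM or more and those past the rule. For each enzyme it names up to 5 genes of nearest pattern. Amy2al1, foxa3, rbpja, rbpjb, rab26, rab27b, ins, insb, pcsk2, neurod1 and ghrl were chosen after their values were seen. No sequences were used here.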

Additional observations from a re-analysis of the deposited data

How the results depend on the processing

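The number of members past the 2-fold rule (0 in the knockout and 2 in the transgenic library against control, 2 between the transgenic and the knockout library) was the same under pseudocounts of 0.1 and 5, no floor, a floor of 5 FPKM, 3 other scalings and, chosen after seeing the data, with cel.1 and cel.2 summed as 1 gene; the floor of 5 FPKM leaves the enzyme genes alone. Under these settings the log2 ratio in the transgenic library against control ranged from -1.31 to -1.26 for amy2a, -1.33 to -1.27 for cel.1, -0.88 to -0.82 for cel.2 and -0.80 to -0.74 for pla2g1b, and in the knockout from 0.85 to 0.90 for cel.2 and -0.37 to -0.31 for cel.1. The median of the other exocrine genes ranged from -0.97 to -0.87 in the transgenic library and from 0.07 to 0.13 in the knockout. Counts over all genes depended on how low genes were treated. For the knockout against control, 149 higher and 124 lower became 476 and 357 with a pseudocount of 0.1, 16 and 24 with 5, 58 and 69 with a floor of 5 FPKM, and 263 and 191 on the TPM scale. For the transgenic library against control, 685 higher and 243 lower became 1396 and 697, 179 and 49, and 400 and 134 in the first 3 of these, and 917 and 401 on the TPM scale. For the transgenic against the knockout library, 538 higher and 202 lower became 975 and 594 with a pseudocount of 0.1 and 196 and 47 with 5. They were 418 and 114 with the floor of 5 FPKM and 674 and 320 on the TPM scale. With the full gene length the fragments behind amy2a in control came to 5671 in place of 5637.

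No paired analysis was possible because each group has 1 library, which also leaves none to omit. The reads of rbpjl and bhlha15 are too few to show a difference of the size seen in amylase. A knockout value of rbpjl was not analysed here.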
